A study of Caenorhabditis elegans with 2 samples.

Results

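JUN-1 peaks in the promoters of X-linked genes are described here, from chromatin immunoprecipitation sequencing (ChIP-seq) of whole L3 larvae of Caenorhabditis elegans. The worms were of strain OP234, genotype unc-119(ed3) III; wgIs234, which carries an eGFP-tagged jun-1 insertion, and males and females were pooled. There was 1 group with 2 biological replicates, both carrying the same insertion, so no comparison between conditions was possible, and control libraries were not analysed here. The promoter that drives the tagged gene is not given in the sources used here. A region was a member when it stood in the authors' list of peaks kept by the irreproducible discovery rate (IDR, a measure of how alike the replicates rank regions), lay on X, and had its summit in a promoter window, which begins 1000 bp before and ends 500 bp after the 5′ end of a protein-coding transcript. Of 2738 IDR peaks on build ce11, 283 were members, which is 10.3% (exact 95% interval 9.22 to 11.5%). They were 49.3% of the 574 IDR peaks on X (45.1 to 53.5%), beside 291 X-linked peaks outside promoters, and 1298 IDR peaks lay in autosomal promoters. A gene is called bound when a member summit lay in its promoter window, which describes a listed region near a gene and not an effect on its transcription.

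Jun proteins are transcription factors of the basic leucine zipper (bZIP) class, which grip DNA as dimers, and a Jun and Fos pair forms the AP-1 complex with its preferred site TGACTCA. Related bZIP dimers prefer the cAMP response element (CRE) TGACGTCA or the C/EBP-type site TTGCGCAA. In C. elegans, hermaphrodites have a pair of X chromosomes and males a single one, and a dosage compensation complex binds the hermaphrodite X chromosomes and lowers their transcription. That complex is loaded at recruitment elements that hold a motif called MEX, whose core was searched here as GCGCAGGG.

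The DNA under the 3 strongest members is shown first because their summits carry a bZIP site or a MEX core. Each window is the 101 bp centred on the summit, on the plus strand of ce11, read from the RefSeq WBcel235 genome, and the capitals mark TGAGTCA, the AP-1 site on the other strand, for cebp-1, and GCGCAGGG or its reverse complement CCCTGCGC for the other windows. They lie at chrX:14525862-14525962 for nspc-17 (WBGene00008359), chrX:1454558-1454658 for cebp-1 and chrX:1344978-1345078 for ins-39.
nspc-17: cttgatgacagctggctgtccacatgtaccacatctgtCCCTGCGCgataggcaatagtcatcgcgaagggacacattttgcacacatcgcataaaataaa
cebp-1: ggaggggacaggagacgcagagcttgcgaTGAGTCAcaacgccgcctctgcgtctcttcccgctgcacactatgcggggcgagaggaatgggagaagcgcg
ins-39: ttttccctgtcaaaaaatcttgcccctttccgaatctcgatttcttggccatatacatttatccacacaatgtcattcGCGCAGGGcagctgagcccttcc

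An AP-1 site within 50 bp of the summit was found in 7 members, and 5 of the other sites are shown with 25 bases on each side because they hold the tagged factor's own preferred letters. Capitals mark TGACTCA or its reverse complement TGAGTCA, on the plus strand of ce11. In the order printed the stretches are chrX:3605869-3605925, chrX:7791945-7792001, chrX:871201-871257, chrX:2258600-2258656 and chrX:2852887-2852943.
C18B2.4: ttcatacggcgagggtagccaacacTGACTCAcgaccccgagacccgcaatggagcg
ZK154.6: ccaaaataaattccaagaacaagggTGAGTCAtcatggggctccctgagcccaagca
lgl-1: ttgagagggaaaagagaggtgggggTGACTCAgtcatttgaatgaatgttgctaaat
crn-4: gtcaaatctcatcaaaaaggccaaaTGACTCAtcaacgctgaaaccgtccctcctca
kin-29: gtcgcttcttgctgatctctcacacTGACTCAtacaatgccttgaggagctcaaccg

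The E-box CACGTG and the GAGA repeat GAGAGAGA were the sites that members held more often than lower-ranked X-linked promoter regions, a comparison given further on. Neither share differed past the threshold from those of the other IDR classes. The 101 bp summit windows of the 4 strongest members with an E-box are shown for that reason, at chrX:7334484-7334584 (epg-7), chrX:13528721-13528821 (F18H3.4), chrX:14790448-14790548 (tatn-1) and chrX:10568566-10568666 (bet-2), on the plus strand of ce11. Capitals mark the E-box in each, the GAGA repeat in tatn-1, and the GATA site TGATAA in F18H3.4, where 1 of its copies shares its first letters with the end of the E-box.
epg-7: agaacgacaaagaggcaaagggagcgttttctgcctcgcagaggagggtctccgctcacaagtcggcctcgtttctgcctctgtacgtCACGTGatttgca
F18H3.4: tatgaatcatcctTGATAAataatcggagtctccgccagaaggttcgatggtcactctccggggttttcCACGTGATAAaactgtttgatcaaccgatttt
tatn-1: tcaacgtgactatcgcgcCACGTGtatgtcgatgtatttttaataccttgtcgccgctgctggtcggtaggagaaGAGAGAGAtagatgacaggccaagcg
bet-2: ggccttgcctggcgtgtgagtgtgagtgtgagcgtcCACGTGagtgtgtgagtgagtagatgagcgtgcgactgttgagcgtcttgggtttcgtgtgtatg

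The signal value that the authors deposited for a region is a score of unstated scale and unknown depth. Classes and ranks of regions by this value were compared within a list. Ratios of replicate 2 to replicate 1 set 2 lists side by side, and the relative depth of these is unknown. Every member is described below by its signal value in the list pooled from both replicates and by that of the region with the nearest summit within 200 bp in the list of each replicate. Such a region was found for 279 members in replicate 1, for 282 in replicate 2 and for 278 in both. In 2 members, both at epn-1, the replicate 1 region was the same one, and in 2 members, both at svh-5, the replicate 2 region was. Whole larvae were used, so strong binding in few cells and weak binding in many cannot be told apart.

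The strongest X-linked promoter peak had a pooled value of 377, with 164 in replicate 1 and 218 in replicate 2. It lay at chrX:14525712-14526151, 731 bp upstream of nspc-17, a gene of a nematode-specific peptide family. The next was 740 bp upstream of cebp-1, a bZIP factor of the C/EBP class, with 276 pooled, 118 in replicate 1 and 158 in replicate 2. Upstream of ins-39, which encodes an insulin-like peptide, the values were 267 pooled, 109 in replicate 1 and 164 in replicate 2, with the summit 607 bp from the 5′ end. All 3 summits were intergenic, and replicate 2 was the higher replicate at each.

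After these came puf-9, a PUF-family RNA-binding protein gene, with 239 pooled, 137 in replicate 1 and 101 in replicate 2. Its summit, 270 bp upstream, lay within the noncoding RNA genes W06B11.7 and W06B11.9. The F-box gene fbxb-58 had 216 pooled, 97.6 in replicate 1 and 117 in replicate 2, and epn-1, which encodes the endocytic adaptor epsin, had 216 pooled, 107 in replicate 1 and 116 in replicate 2. The summit at fbxb-58 was 995 bp upstream, near the edge of the window, whereas that at epn-1 was 435 bp upstream. Next, serp-1.1 had 207 pooled, 96.3 in replicate 1 and 112 in replicate 2, and nipi-3, which encodes a Tribbles-type pseudokinase, had 193 pooled, 87.6 in replicate 1 and 108 in replicate 2.

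**Figure D1:**
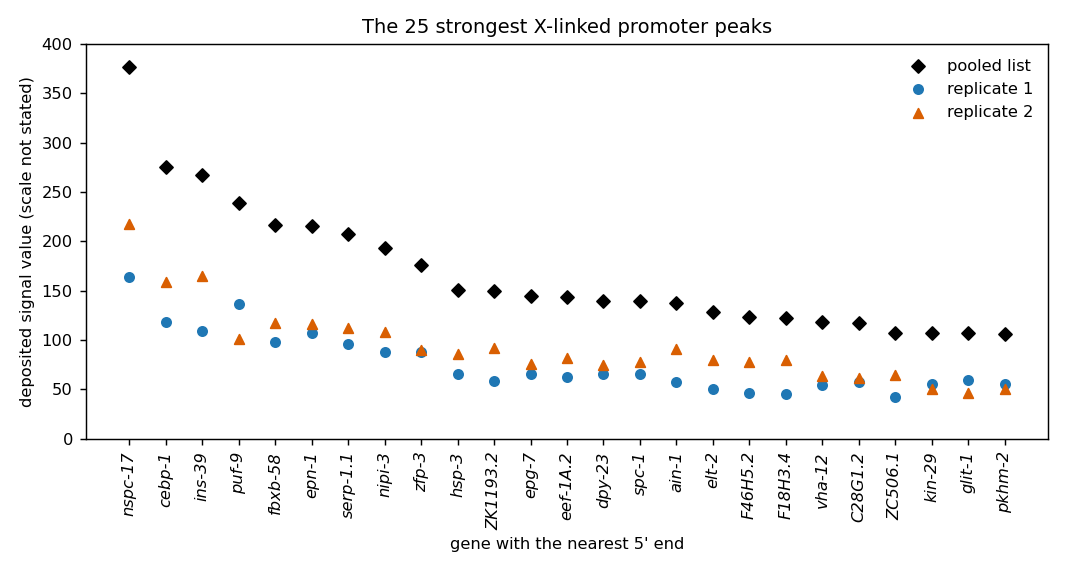
The deposited signal value (vertical axis, scale not stated) of the 25 strongest X-linked promoter peaks, ordered by the pooled value and named by the gene with the nearest 5′ end, with diamonds for the pooled list, circles for replicate 1 and triangles for replicate 2. Pooled values run from 377 to 106, and replicate 2 is above replicate 1 at 21 of the 25 peaks.

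The 25 strongest members had pooled values of 106 to 377. In 21 of them replicate 2 was higher, with a ratio of replicate 2 to replicate 1 between 0.737 and 1.78, and all 25 had one of the 2738 strongest regions of each replicate within 200 bp. Of their summits, 24 were upstream of the nearest 5′ end and 20 were intergenic. The gene hsp-3, for the endoplasmic reticulum chaperone BiP, had 151 pooled, 65.6 in replicate 1 and 85.6 in replicate 2, with its summit 66 bp upstream. The gene epg-7, for an autophagy scaffold protein, had 144 pooled, 65.0 in replicate 1 and 75.3 in replicate 2. The gene dpy-23, for the mu subunit of the AP2 clathrin adaptor, had 139.9 pooled, 65.6 in replicate 1 and 74.4 in replicate 2, and its summit fell in the noncoding RNA gene R160.8.

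Among the same 25 were vha-12, the B subunit of the proton-pumping V-ATPase (118 pooled, 54.0 in replicate 1 and 63.8 in replicate 2), and spc-1, the alpha spectrin of the membrane skeleton (139.8 pooled, 65.2 in replicate 1 and 77.5 in replicate 2). The gene ain-1, for a GW182-type protein of the microRNA silencing complex, had 137 pooled, 57.0 in replicate 1 and 90.6 in replicate 2. The gene elt-2, for the main GATA factor of the intestine, had 129 pooled, 50.2 in replicate 1 and 79.3 in replicate 2. The gene eef-1A.2, for a translation elongation factor, had 143 pooled, 62.1 in replicate 1 and 82.2 in replicate 2. The others were the zinc finger gene zfp-3 (176 pooled), ZK1193.2 (149), F46H5.2 (123), F18H3.4 (122), C28G1.2 with the exocyst gene sec-15 on the other strand (117), ZC506.1 (107), kin-29, a kinase of the salt-inducible type (107), glit-1 with dnj-14 on the other strand (107) and pkhm-2 (106).

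Most members were far weaker than these. Over all 283, the median pooled value was 47.8 (95% interval of the median 46.0 to 50.9), the quartiles were 38.6 and 66.5, and the range was 31.4 to 377. The value was over 50 in 132 members, over 100 in 27 and over 200 in 7. Of the 25 strongest IDR peaks of the whole genome 3 were members, of the 100 strongest 14, and of the 500 strongest 52. Median values were 47.4 for autosomal promoter peaks (46.1 to 49.1) and 49.1 for X-linked peaks outside promoters (45.8 to 51.9), and these intervals overlap that of the members. The share of members in the top 25% of the IDR list, 26.1%, did not differ past the threshold from the 24.7% of autosomal promoter peaks (odds ratio 1.08, adjusted p = 0.649) or the 32.3% of X-linked peaks outside promoters (odds ratio 0.742, adjusted p = 0.208, two-sided Fisher's exact tests). Where promoters reached 2000 bp upstream, the last comparison passed (odds ratio 0.530, adjusted p = 0.00259, exact test). It also passed with replicate 2 alone (0.637, adjusted p = 0.0403, exact test). In that run the strongest regions of the replicate 2 list, as many as the IDR list holds, replaced the IDR peaks. Its 277 X-linked promoter regions are therefore a different set from the members.

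The members lay along the whole chromosome. The left, middle and right parts of X, each of equal length, held 89, 99 and 95 members, or 10.2, 10.1 and 10.7 per 100 protein-coding genes. There were 16.0 members per Mb, the median distance between neighbouring summits was 35215.5 bp, and the largest gap was 333393 bp. By annotation, 204 summits (72.1%) were intergenic, 40 (14.1%) lay in an intron, 14 (4.95%) in a 5′ UTR, 8 (2.83%) in a coding exon and 2 (0.707%) in a 3′ UTR. The other 15 (5.30%) lay in a noncoding gene or pseudogene, of which 5 summits were in a tRNA gene.

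Summits were mostly upstream of the 5′ end. Of the 283, 257 were upstream (90.8%, 86.8 to 93.9%) and 26 downstream. The median distance from the nearest 5′ end was 252 bp (213 to 279 bp), with quartiles of 124 and 434.5 bp, and 53 summits lay within 100 bp, 141 within 250 bp and 228 within 500 bp. In autosomal promoters the median distance was 208.5 bp (195 to 226 bp). For 39 members the summit lay near a 5′ end inside the gene, and in the window of no outermost 5′ end. Annotated 5′ ends in worms often mark the trans-splice site rather than the place where transcription starts, so the distances are to the annotation.

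**Figure D2:**
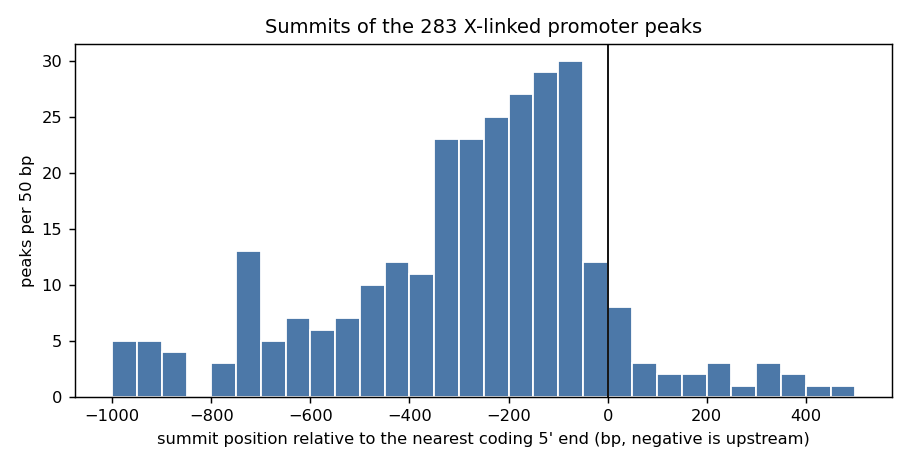
Positions of the 283 member summits relative to the nearest 5′ end of a protein-coding transcript (horizontal axis, bp, negative values upstream), as the number of peaks in each 50 bp (vertical axis), with the vertical line at the 5′ end. Most summits are upstream, 257 of 283, and 228 lie within 500 bp.

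The edges of the rule were as follows. The weakest members were at sma-5, tbc-18 and pifk-1, with pooled values of 31.6, 31.4 and 31.4, and the strongest X-linked promoter regions left out of the IDR list were at T04G9.6, sprr-2 and kin-20, each with 31.3. The replicate values of sma-5, a MAP kinase gene, were 5.35 in replicate 1 and 19.7 in replicate 2, while those of kin-20, a casein kinase I gene, were 16.0 in replicate 1 and 14.5 in replicate 2. Inside the window at its upstream edge were ptp-4A2 at -999 bp and fbxb-58 at -995 bp, and the nearest IDR peaks outside it were at C04A11.2, at -1025 bp, and C07B5.8, at -1061 bp. Downstream, dgk-2 at 429 bp and unc-58 at 488 bp were inside, and peaks at 530 bp from atg-2 and 566 bp from T02C5.1 were outside.

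The members bound 292 of the 2731 X-linked protein-coding genes, which is a share of 10.7% (9.56 to 11.9%). On the autosomes 1606 of 17242 genes were bound by the same rule, or 9.31% (8.88 to 9.76%). Counting any region of the pooled list, whatever its rank, 1132 X-linked genes had a summit in the promoter, or 41.5%. Of the bound genes, 282 had 1 member peak, 9 had 2 and 1 had 3, and 39 shared their strongest peak with another gene. X-linked genes with a gene-class name, such as those described below, were bound in 195 of 1344 cases (14.5%, 12.7 to 16.5%), and other X-linked genes in 6.99% (5.71 to 8.47%), so 14.5% is the nearer background for the lists of named genes below.

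The gene with 3 members was bet-2, which encodes a bromodomain protein. Its summit 412 bp upstream had 78.8 pooled, 54.3 in replicate 1 and 29.2 in replicate 2. Its summit 657 bp upstream had 77.6 pooled, no matched region in replicate 1 and 47.8 in replicate 2. Its summit 213 bp upstream had 39.4 pooled, 19.2 in replicate 1 and 29.1 in replicate 2. Replicate 2 was highest at the summit 657 bp upstream. Replicate 1 had no summit within 200 bp of it, so the order of all 3 cannot be compared. Of the other summits, that at 412 bp had the higher value in both replicates, by little in replicate 2. Genes with 2 members were epn-1, ain-1, kin-29, atf-6, the heme transporter gene hrg-1, ZK470.2, svh-5, the cyclase-associated protein gene cas-1 and unk-1. The second peaks were weaker, with pooled values of 65.6 at epn-1, 41.3 at ain-1 and 37.8 at kin-29.

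Gene lists were described by counts, with no test, and 60 of the 464 X-linked genes in at least 1 of 26 lists were bound. All 3 X-linked genes of the bZIP list were bound. Beside cebp-1, the unfolded protein response factor gene atf-6 had 57.8 pooled, 26.9 in replicate 1 and 32.2 in replicate 2 at its stronger peak. The gene atf-4, for the translationally controlled factor ATF4, had 49.5 pooled, 18.5 in replicate 1 and 26.6 in replicate 2. Of these, the atf-4 peak is shared with a second gene. Among 4 GATA factor genes elt-2 was bound and elt-3, elt-4 and med-1 were not. Of 27 nuclear hormone receptor genes 4 were bound (nhr-48 with 97.6 pooled, nhr-35 with 62.5, nhr-255 with 43.1 and nhr-32 with 34.3), of 9 basic helix-loop-helix genes 1, the Mad-type gene mdl-1 (73.7 pooled), and of 29 homeobox genes 2, psa-3 (50.8) and ceh-39 (34.8).

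Genes of energy production and protein synthesis come next. Of 6 X-linked genes of the respiratory chain and ATP synthase 5 were bound (83.3%, 35.9 to 99.6%), and gas-1 was not, although all 6 had a region in the pooled list. The flavoprotein subunit gene of succinate dehydrogenase, sdha-1, had 74.9 pooled, 26.4 in replicate 1 and 49.9 in replicate 2. The ATP synthase subunit genes were asg-2, with 71.0 pooled, 22.4 in replicate 1 and 49.8 in replicate 2, and asb-2, with 54.4 pooled, 31.0 in replicate 1 and 22.3 in replicate 2. The complex III core genes ucr-2.2 and ucr-2.1 had 52.8 and 43.9 pooled, and the ucr-2.1 summit lay nearer to nmat-1. Replicate 2 was higher at 4 of these 5 genes and lower at asb-2. Of 3 translation factor genes eef-1A.2 and the eIF4E gene ife-2 (33.9 pooled) were bound, and of 2 ribosomal protein genes rpl-11.2 was, with 91.9 pooled, 48.0 in replicate 1 and 46.5 in replicate 2.

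Folding and degradation followed. Among the X-linked heat shock and folding genes 4 of 8 were bound (15.7 to 84.3%). They were hsp-3, the DnaJ-type gene dnj-14 (107 pooled, in a peak nearer to glit-1) and the protein disulphide isomerase genes pdi-6 and pdi-2. At pdi-6 the values were 88.7 pooled, 35.4 in replicate 1 and 53.8 in replicate 2, and at pdi-2 they were 54.7 pooled, 18.7 in replicate 1 and 38.0 in replicate 2. Of 17 lysosome, V-ATPase and autophagy genes 7 were bound (41.2%, 18.4 to 67.1%). Beside epg-7 and vha-12 these were the sorting nexin gene snx-1 (53.2 pooled), the small GTPase gene rab-14 (38.6), atg-2 for a lipid transfer protein of autophagy (38.5), the lysosomal membrane protein gene lmp-1 (38.4) and the V-ATPase A subunit gene vha-15 (33.7). The last 4 were in the weaker part of the IDR list, and among its 1369 strongest peaks 3 of the 17 genes were bound. Of 8 proteasome and ubiquitin genes skr-19 (33.0 pooled) was bound.

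Signalling and defence genes come next. Of 6 insulin and TOR signalling genes the 14-3-3 gene ftt-2 (79.7 pooled, 35.4 in replicate 1 and 50.9 in replicate 2) and the kinase gene akt-2 (73.0 pooled, 34.5 in replicate 1 and 33.9 in replicate 2) were bound, and of 2 insulin-like peptide genes ins-39 was. Of 10 genes in the MAP kinase pathway list the GRB2-type adaptor gene sem-5 (54.4 pooled) was bound. That list leaves out sma-5, the bound MAP kinase gene named above among the weakest members. Of 23 lysozyme, lectin and immune effector genes 6 were bound (26.1%, 10.2 to 48.4%). They were the saposin-like genes spp-14 (69.0 pooled), spp-5 (54.4) and spp-3 (50.9), the C-type lectin gene clec-265 (53.1) and the galectin genes lec-8 (52.8) and lec-7 (33.7). At spp-3 the replicates were far apart, with 39.8 in replicate 2 and 8.63 in replicate 1.

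Of 6 X-linked genes of sex determination and dosage compensation, 2 were bound. The gene sdc-2, whose product brings the dosage compensation complex to X, had 78.9 pooled, 29.4 in replicate 1 and 47.4 in replicate 2. The gene ceh-39, a ONECUT homeobox gene that acts as an X-signal element, had 34.8 pooled, 13.5 in replicate 1 and 22.1 in replicate 2. No member lay in the promoters of xol-1, sex-1, sdc-1 or fox-1, so the master switch xol-1 and the X-signal elements sex-1 and fox-1 had no IDR peak there.

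At the other end were genes of neurons, sensory organs and cuticle. Of 36 neuropeptide genes 0 were bound, which by the exact interval allows a share of up to 9.74%, and of 34 chemoreceptor genes 0, which allows up to 10.3%. In each of these lists 4 genes had any region of the pooled list in the promoter, beside the 41.5% of all X-linked genes. Of 41 neurotransmitter receptor and ligand-gated channel genes only glr-6 was bound, through the asg-2 peak, of 31 collagen genes only col-185 (37.1 pooled), and of 31 potassium, calcium and sodium channel genes unc-58 and del-5. Other lists were closer to these backgrounds. Of 42 transporter genes 5 were bound, of 30 axon guidance, Wnt and adhesion genes 3, of 23 lipid metabolism genes the acyltransferase genes acl-4 and acl-1, of 22 muscle and actin cytoskeleton genes spc-1 and act-4, and of 14 cytochrome P450, GST and UGT genes gst-42 and ugt-50. The transporter gene cnnm-2 was counted through a peak nearer to R04E5.9. In the axon guidance list, sax-1 and mom-1 were counted through peaks nearer to R11G1.2 and lev-9. All these lists were chosen with results of these data known, and nothing particular to a list is read from its count.

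**Figure D3:**
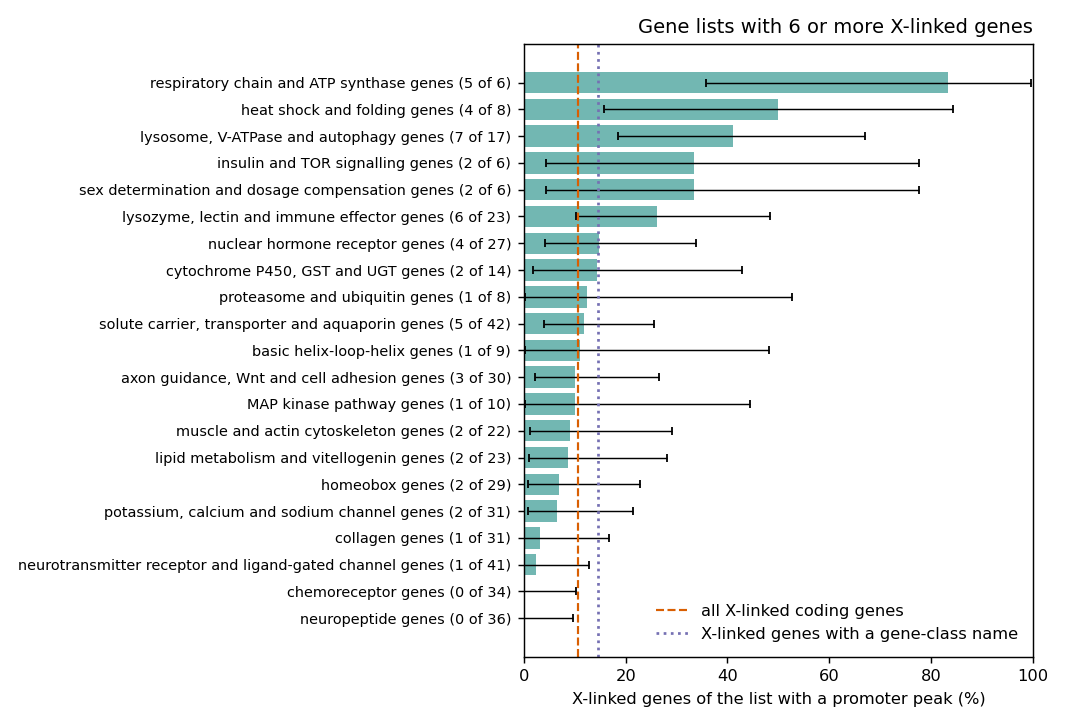
Share of the X-linked genes of each list that had a member peak in the promoter (horizontal axis, %), for the lists with 6 or more X-linked genes, with exact 95% intervals and the numbers bound and listed in parentheses. The dashed line is the 10.7% of all X-linked protein-coding genes, the dotted line the 14.5% of those with a gene-class name, and the bars run from 83.3% for the respiratory chain and ATP synthase to 0 for neuropeptides and chemoreceptors.

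The replicates gave members unequal values. Median values were 20.9 in replicate 1 and 27.8 in replicate 2, and over members replicate 2 exceeded replicate 1 by a median ratio of 1.31 (1.26 to 1.40), with quartiles of 1.07 and 1.67. The ratio was above 1 in 219 of 278 members and below 1 in 59. Across these 278 peaks the log10 values of the replicates had a Pearson r of 0.653 and a Spearman correlation of 0.531, given as a description, since all points come from the same 2 libraries. Split at the median pooled value, r was 0.674 over 141 stronger and -0.354 over 137 weaker members. Both replicates enter the pooled value on which that split was made.

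The highest ratio was 8.33 at F22H10.2, with 34.6 in replicate 2 and 4.16 in replicate 1. It was 6.75 at nhr-35, 4.85 at F08B12.4, 4.61 at spp-3 and 4.53 at C09G1.2. The lowest were 0.218 at rab-14, with 7.37 in replicate 2 and 33.8 in replicate 1, 0.426 at the sphingomyelin synthase gene sms-2, 0.439 at C33A11.2, 0.443 at the calumenin gene calu-1 and 0.448 at pmpl-1. Of all members, 231 had a region among the 2738 strongest of replicate 1 within 200 bp, 245 one of replicate 2, 198 one of both (70.0%) and 5 one of neither. In 3 members of replicate 1, F08B12.4 among them, and in 3 of replicate 2, sms-2 among them, that region was not the nearest one, whose value is given here. The share in both was 65.6% for autosomal promoter peaks (adjusted p = 0.232) and 66.7% for X-linked peaks outside promoters (adjusted p = 0.490, two-sided Fisher's exact tests), differences that did not pass.

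High ratios were less frequent among members than in either other class. A value in replicate 2 more than 2 times that in replicate 1 was found in 40 of 278 members (14.4%, 10.5 to 19.1%), in 318 of 1282 autosomal promoter peaks (24.8%, 22.5 to 27.3%) and in 64 of 288 X-linked peaks outside promoters (22.2%, 17.6 to 27.5%). Both differences passed two-sided Fisher's exact tests, with an odds ratio of 0.509 (adjusted p = 0.000296) and of 0.588 (adjusted p = 0.0171). This comparison was added after seeing the data, and peaks, not larvae, are its units. The replicate values also entered the making of the IDR list, and only the cut of 2 was run. The p-values therefore describe classes within that list. The median ratios were 1.31 for members (1.26 to 1.40), 1.43 for autosomal promoter peaks (1.39 to 1.47) and 1.36 for X-linked peaks outside promoters (1.29 to 1.45). Both other intervals overlap that of the members.

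Members differed from autosomal promoter peaks in the genes around them, and lower-ranked promoter regions on X and on autosomes differed in the same direction. The windows counted here are those that defined both classes. A summit in the windows of promoters on both strands was found for 17 of 283 members (6.01%, 3.54 to 9.44%), against 345 of 1298 autosomal promoter peaks (26.6%, 24.2 to 29.1%). The odds ratio was 0.177 (adjusted p = 1.27e-15, two-sided Fisher's exact test). Among lower-ranked regions, meaning pooled regions in promoters that overlap no IDR peak, the shares were 4.42% of 1153 on X and 13.4% of 6110 on autosomes, and X has 154 coding genes per Mb against 209 on the autosomes. The part of gene density in the difference was not tested. Examples are the peak in the 5′ UTR of C28G1.2, 49 bp downstream of its 5′ end and also in the window of sec-15 on the other strand, and the peak in the windows of glit-1 and dnj-14.

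The DNA at member summits was richer in G and C. The median GC content of the 101 bp at the summit was 46.5% (45.5 to 47.5%) in members, 43.6% in autosomal promoter peaks and 42.6% in X-linked peaks outside promoters. A GC content at or above the median of the IDR list was found for 174 of 283 members (61.5%), against 674 of 1298 autosomal promoter peaks (51.9%, odds ratio 1.48, adjusted p = 0.00879) and 141 of 291 X-linked peaks outside promoters (48.5%, odds ratio 1.70, adjusted p = 0.00669, two-sided Fisher's exact tests). With promoters of 500 bp upstream to 250 bp downstream both calls were lost (1.37, adjusted p = 0.102, and 1.49, adjusted p = 0.0872, exact tests). The call against autosomal promoter peaks was also lost among the 1369 strongest IDR peaks (1.49, adjusted p = 0.0927), and that against X-linked peaks outside promoters with promoters of 2000 bp (1.41, adjusted p = 0.0862, exact tests).

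Among peaks with promoters of 1 strand, a comparison added after seeing the data, 161 of 266 members (60.5%) and 463 of 953 autosomal promoter peaks (48.6%) had the higher GC content (odds ratio 1.62, two-sided Fisher's exact p = 0.000661). The chromosomes themselves were alike, with 35.2% GC on X and 35.5% on the autosomes, and lower-ranked promoter regions had a median of 35.6% on both. Strong members were the richest, with a median GC content of 52.0% in the 50 strongest and 45.5% in the other 233. The windows at cebp-1 and hsp-3, for example, had 64.4% and 65.3%, and that at nspc-17 had 47.5%. In width, 7 of the 50 strongest were narrower than 390 bp, down to 111 bp at epn-1, and the other 233 were all 390 bp wide.

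**Figure D4:**
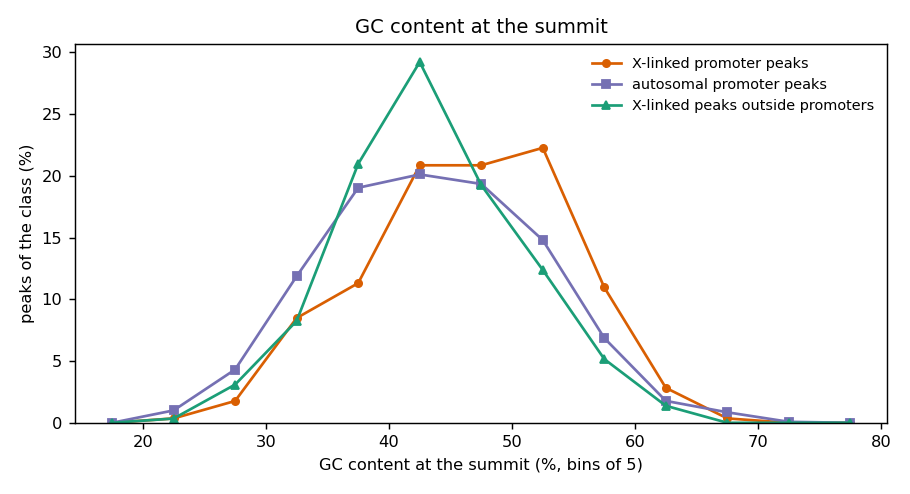
GC content of the 101 bp at the summit (horizontal axis, %, in bins of 5) against the share of the peaks of each class (vertical axis, %), for X-linked promoter peaks, autosomal promoter peaks and X-linked peaks outside promoters. The medians are 46.5%, 43.6% and 42.6% in that order, and the curve of the X-linked promoter peaks is the highest of the 3 between 50 and 65% GC.

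Each motif was sought as exact letters on either strand of the 101 bp windows, and none of the 20 comparisons of 10 motifs with the other IDR classes passed after adjustment. The AP-1 site TGACTCA was in 7 members (2.47%, 1.00 to 5.03%), in 3.47% of autosomal promoter peaks (odds ratio 0.706, adjusted p = 1.00) and in 5.15% of X-linked peaks outside promoters (odds ratio 0.467, adjusted p = 0.701, two-sided Fisher's exact tests). Most members therefore had no exact AP-1 site in this window, and no match says only that these letters are not there. The 7 carriers had pooled values of 37.8 to 276, and their median GC content was 53.5%.

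Of the carriers printed above, cebp-1 was the strongest, with the centre of its site at -18 bp from the summit. C18B2.4 had 77.3 pooled, 41.4 in replicate 1 and 35.2 in replicate 2, and ZK154.6 had 50.9 pooled, 31.9 in replicate 1 and 22.4 in replicate 2, in an intron. The polarity gene lgl-1 had 49.4 pooled, 29.9 in replicate 1 and 16.6 in replicate 2, and the cell death nuclease gene crn-4 had 46.9 pooled, 25.8 in replicate 1 and 20.0 in replicate 2. The weaker peak of kin-29 had 37.8 pooled, 12.8 in replicate 1 and 17.2 in replicate 2. Over all 7 carriers replicate 2 was the higher at 3 and the lower at 4, and the centre of the site was 18 to 42 bp from the summit.

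Other bZIP sites were rarer still. The CRE was in 5 members (1.77%), namely dhs-25, a short-chain dehydrogenase gene (59.2 pooled), rbg-1, a Rab3 GTPase-activating protein gene (53.3), the fumarylacetoacetase gene fah-1 (49.8), the SNARE gene memb-1 (47.7) and the transthyretin-related gene ttr-37 (38.8). The share with a CRE was 1.23% in autosomal promoter peaks, 0.687% in X-linked peaks outside promoters and 0.694% in lower-ranked X-linked promoter regions. The C/EBP-type site TTGCGCAA was in 2 members, C14A11.9 (101 pooled) and pdi-6. The site TTACGTAA of PAR-type bZIP factors was in 0 of 283, which by the exact interval allows up to 1.30%. The GATA site TGATAA was in 56 members (19.8%), in 21.6% of autosomal promoter peaks and in 22.0% of X-linked peaks outside promoters (both adjusted p = 1.00, Fisher's exact tests), and its strongest carriers were fbxb-58, F18H3.4, the claudin-like gene clc-1 and abhd-3.2. The Sp1/KLF site CCGCCC was in 11 members (3.89%), with nipi-3, spp-14, pdi-2 and ZK154.6 the strongest.

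The MEX core GCGCAGGG was in 3 members (1.06%, 0.219 to 3.07%), namely nspc-17, ins-39 and R04E5.9. The last, with cnnm-2 on the other strand, had 75.4 pooled, 41.1 in replicate 1 and 38.0 in replicate 2. The core was in 1 of 1298 autosomal promoter peaks (0.0770%) and in 11 of 291 X-linked peaks outside promoters (3.78%). The odds ratios were 13.9 (adjusted p = 0.394) and 0.273 (adjusted p = 0.547, two-sided Fisher's exact tests), so neither passed. The first passed with promoters of 2000 bp upstream (23.6, adjusted p = 0.0173) and when 100 bp to either side of the summit was searched (23.3, adjusted p = 0.00913, exact tests). Against lower-ranked X-linked promoter regions, of which 2 of 1153 (0.173%) held it, it did not pass (adjusted p = 0.138, Fisher's exact test). That comparison passed with promoters of 2000 bp upstream (odds ratio 8.23, adjusted p = 0.0124), with 100 bp to either side (5.17, adjusted p = 0.0361), among the 1369 strongest IDR peaks (14.1, adjusted p = 0.0264) and with replicate 1 alone (22.3, adjusted p = 0.00811, exact tests). For the 1369 strongest, the lower-ranked regions were those that overlap none of these 1369, so weaker IDR peaks were not kept out. With replicate 1 alone, the strongest regions of the replicate 1 list, as many as the IDR list holds, replaced the IDR peaks. The lower-ranked regions came from the same list.

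**Figure D5:**
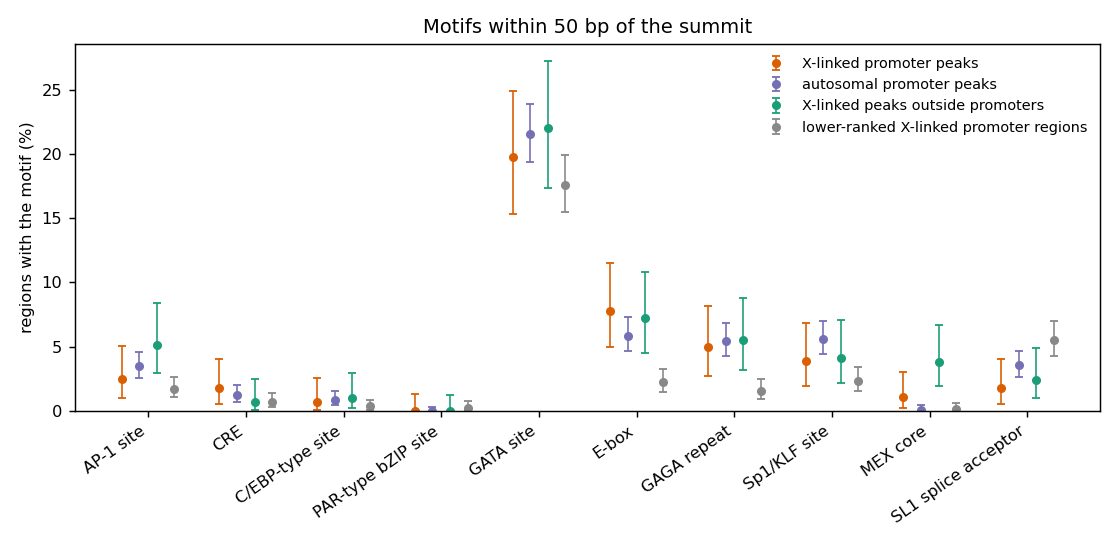
Share of regions (vertical axis, %) with each of 10 motifs within 50 bp of the summit (horizontal axis), with exact 95% intervals, in X-linked promoter peaks, autosomal promoter peaks, X-linked peaks outside promoters and lower-ranked X-linked promoter regions. For the E-box the shares in the first and the last class are 7.77% and 2.25%, with intervals that do not overlap.

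Set against the 1153 lower-ranked X-linked promoter regions, a comparison added after seeing the data and adjusted over 10 motifs, 3 motifs passed. The E-box CACGTG, the site of Myc and Max type factors, was in 22 members (7.77%, 4.94 to 11.5%) and in 26 lower-ranked regions (2.25%), with an odds ratio of 3.65 (adjusted p = 0.000267, Fisher's exact test). The GAGA repeat was in 14 members (4.95%) and in 18 lower-ranked regions (1.56%, odds ratio 3.28, adjusted p = 0.0115, exact test). Neither motif was particular to members among IDR peaks. The E-box was in 5.86% of autosomal promoter peaks and 7.22% of X-linked peaks outside promoters, and the GAGA repeat in 5.47% and 5.50%. The letters TTTTCAG, searched here as the SL1 splice acceptor, were less frequent, in 5 members (1.77%) and in 64 lower-ranked regions (5.55%). The odds ratio was 0.306 (adjusted p = 0.0168, the tests being two-sided Fisher's exact tests). The AP-1 site did not pass, with 1.73% of lower-ranked regions (odds ratio 1.44, adjusted p = 0.513, exact test). GC content was higher in members than in these regions, 46.5% against 35.6% at the median, and its part in the motif differences was not tested.

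The E-box carriers with the highest signal were epg-7, F18H3.4, the tyrosine aminotransferase gene tatn-1, bet-2 at its peak 657 bp upstream, and mdl-1. At tatn-1 the values were 77.7 pooled, 35.5 in replicate 1 and 47.2 in replicate 2, and at mdl-1, whose own product is a Mad-type partner of Max proteins, they were 73.7 pooled, 22.5 in replicate 1 and 48.6 in replicate 2. The 22 carriers had a median GC content of 47.0%, near that of all members. The strongest GAGA carriers were eef-1A.2, F46H5.2, kin-29, both of whose peaks held the repeat, and tatn-1. Matches to the SL1 acceptor letters were found at nhr-35, psa-3, C07D8.6, the Notch co-ligand gene osm-11 and H40L08.3. Whether splicing takes place at these letters was not tested. With promoters of 500 bp the GAGA and SL1 calls were lost (adjusted p = 0.408 and 0.0594), and when 25 bp to either side of the summit was searched they were lost as well (adjusted p = 0.0517 and 0.215, exact tests). The SL1 call was also lost among the 1369 strongest IDR peaks, set against regions that overlap none of these 1369 (adjusted p = 0.0797, exact test).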

How the data were processed

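ChIP-seq peak lists on ce11 were used, in narrowPeak format. Per the deposited text files, each replicate's list was made from its alignments with a control, the pooled list from the alignments of both, and the IDR list from these lists. The aligner, peak caller, IDR threshold and depth were not given in the sources used here, and the deposited signal value is the authors' score for a region, with no stated scale. Lists on ce10 were not used, since the annotation (Ensembl release 115, WBcel235) is of ce11.

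Every protein-coding transcript gave a promoter, and a peak counted for each gene whose window held its summit. Replicate regions were matched by nearest summit within 200 bp. The 7 comparisons of properties and 20 of motifs were tested with Fisher's exact test, two-sided, at 0.05 after Benjamini-Hochberg adjustment within each family. The properties of signal value and replicate rank rest on values that also made the IDR list. Their tests compare classes within that list only. Intervals are exact (Clopper-Pearson, 95%) or, for medians, from order statistics. They cover counting error only, and regions were treated as independent. Lower-ranked regions overlap no IDR peak. The samples differ only as replicates, so p-values compare sets of regions. The rule for named genes took the 25 strongest members, up to 5 per gene list, the AP-1 carriers and the strongest of other motifs, replicate extremes, genes with 3 peaks, and edges. To complete short counts, other genes (further list members and carriers, genes with 2 peaks, unbound list members) were named after their values were seen. The values of 1 AP-1 carrier are not reported here. The members, lists and motifs were chosen with earlier results of these data known. Alternatives varied the promoter and motif windows, 5′ ends, matching distance, peak list and replicate. The test of motif shares was tried on the real summit windows with shuffled classes and planted motifs. The software was Python 3.11.15 with scipy 1.17.1, numpy 2.4.6, pandas 2.3.3 and, for plots, matplotlib 3.10.9.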

Additional observations from a re-analysis of the deposited data

How the results depend on the processing

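No paired analysis was possible because the labels give only 1 group. The share of X-linked IDR peaks in promoters was 38.3% with promoters of 500 bp upstream to 250 bp downstream, 59.8% with 2000 bp upstream, and 42.5% with only the outermost 5′ end of each gene. Among the 1369 strongest IDR peaks there were 143 members and 153 bound genes, with a median signal of 66.3, and with 1 replicate alone the median was 20.9 to 28.9. Properties that passed against autosomal promoter peaks numbered 1 among the 1369 strongest and 1 with the 500 bp promoters, and against X-linked peaks outside promoters 0 with the 500 bp promoters and 1 to 2 with 1 replicate. Motifs that passed against autosomal promoter peaks numbered 1 with 2000 bp and 2 with motif windows of 100 bp. Against lower-ranked regions they numbered 1 with 500 bp, 1 with motif windows of 25 bp, 5 with 100 bp and 3 to 6 with 1 replicate. With replicate 1 alone they included the CRE (odds ratio 3.72, adjusted p = 0.0311) and the GATA site (1.57, adjusted p = 0.0180, exact tests). All runs with 1 replicate replaced the IDR peaks by the strongest regions of its list, as many as the IDR list holds. Their lower-ranked regions came from the same list, so these runs did not test the members again. None of the following odds ratios passed in any setting: the E-box against X-linked peaks outside promoters turned to 0.852 (500 bp), 0.998 (100 bp windows) and 0.869 and 0.839 (without replicate 1 and 2), the AP-1 site to 0.337 against lower-ranked regions (25 bp windows) and to 1.03 against autosomal promoter peaks (100 bp windows). The causes were not tested. The E-box call against lower-ranked regions and the call on promoters of both strands kept their direction and passed in every alternative run. With motif windows of 25 bp no autosomal promoter peak held the MEX core, so that setting gave no ratio. The unknown depth limits what weak regions can show.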
